A study of Mus musculus with 16 samples.

Results

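Hypoxia and HIF target genes were followed in tumour cells that had survived a T cell attack and in the neighbours that the T cells did not target. The set holds 31 genes of the 49315 in the count table: the HIF factors and their oxygen sensors, and well-known target genes. The genes were taken by symbol from a list of names, which was drawn up with earlier results of these data known. The rule itself uses no measured value, and each symbol was found once. Of the 31, 30 had enough counts to be tested within tumours. Only Stc2, a secreted glycoprotein, fell below the filter.

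The cells were 4T07, a mouse mammary carcinoma line. In mixed tumours, 250000 GFP-transduced and mCherry-transduced cells were placed at equal parts in the mammary fat pad of female C57BL/6J x Balb/cJ F1 hybrids. Jedi T cells, which recognise GFP, lacked PD1 and entered by tail vein when tumours had grown for 7 or 15 days. Tumours were taken 7 days after that. The groups were GFP cells and mCherry cells of 3 tumours of day 7, GFP cells and mCherry cells of 3 tumours of day 15, and mCherry cells of 4 control tumours. The controls received no GFP cells and no Jedi T cells, and the sources used here do not give their harvest day. No GFP library came from a tumour without T cells, so that the reporter and the attack cannot be told apart in any comparison of GFP with mCherry cells. Cells were stained for CD45 before sorting; neither the gate nor the age of the mice is stated in these sources. Sequencing run 1 held all libraries of day 7, and run 2 those of day 15 and the controls, so that day and run cannot be told apart either.

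Cells sense oxygen through prolyl hydroxylases, among them Egln1 and Egln3, which mark the α subunits Hif1a and Epas1 while oxygen is present. The Vhl protein binds the marked subunits and they are degraded. When oxygen is short the subunits persist, pair with Arnt and bind DNA at a short core, ACGTG or GCGTG, beside genes of glycolysis, pH control, vessel growth, mitophagy and collagen modification. Most of this control acts on the HIF proteins, so that the transcripts of Hif1a and Epas1 need not follow oxygen, and several targets, Egln3, Ddit4 and Adm among them, answer to other signals too.

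Library totals lay between 9412040 and 14535791 counts for GFP cells and between 12942893 and 19970822 for mCherry cells on day 7. They were 21183324 to 24880582 for GFP cells and 21832170 to 22248031 for mCherry cells on day 15, and 24367417 to 32808354 in controls. Values are normalised read counts as CPM, that is, counts scaled to library size. Of the marks of a mammary carcinoma, Krt8 and Krt18 were present in every library and Epcam stayed low, at 0.57 to 2.64 CPM. Of the basal keratins, Krt14 was at 0 in all day 7 libraries of both colours and Krt5 in all day 7 GFP libraries. The mitochondrial share of counts was 1.12% to 2.00%.

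The members did not all move in 1 direction in GFP cells on either day. On day 7, 3 members rose and 9 fell in GFP cells against the mCherry cells of the same tumours, at an adjusted p under 0.05 in edgeR. Of the 14578 genes tested on that day 18.2% were called, 8.89% higher and 9.33% lower, against 40.0% of the tested members, 10.0% higher and 30.0% lower. The share of members higher was thus near that of all genes. On day 15, 6 members rose and 3 fell, 30.0% of those tested, 20.0% higher and 10.0% lower. Of all 14260 genes 19.5% were called, 8.94% higher and 10.6% lower. The share of members lower on day 15 was thus near that of all genes. The median log2 fold change of the members was −0.13 on day 7 and 0.13 on day 15, and that of all genes was −0.00 and 0.01.

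Car9 and P4ha1 rose on both days, and Car12, Plod2 and Ddit4 fell on both. On day 7 alone, Kdm3a was called higher and Epas1, Egln3, Adm, Bnip3l, Fam162a and Ero1l lower. On day 15 alone, Egln1, Mif, Higd1a and Ak4 were called higher. In all, 16 members were called on at least 1 day and 14 tested members on neither, Hif1a, Vegfa and Slc2a1 among these. GFP cells lay above mCherry cells in all 3 tumours for 7 members and below for 13 on day 7, where 24.5% and 27.6% of all genes did so. On day 15 the counts were 10 above and 5 below, where 27.3% and 27.6% of all genes did so. The values of GFP and mCherry libraries did not overlap for 13 members on day 7 and 12 on day 15. Among all genes, 15.9% lay wholly higher and 18.2% wholly lower on day 7, and 17.3% and 19.0% on day 15.

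**Figure D1:**
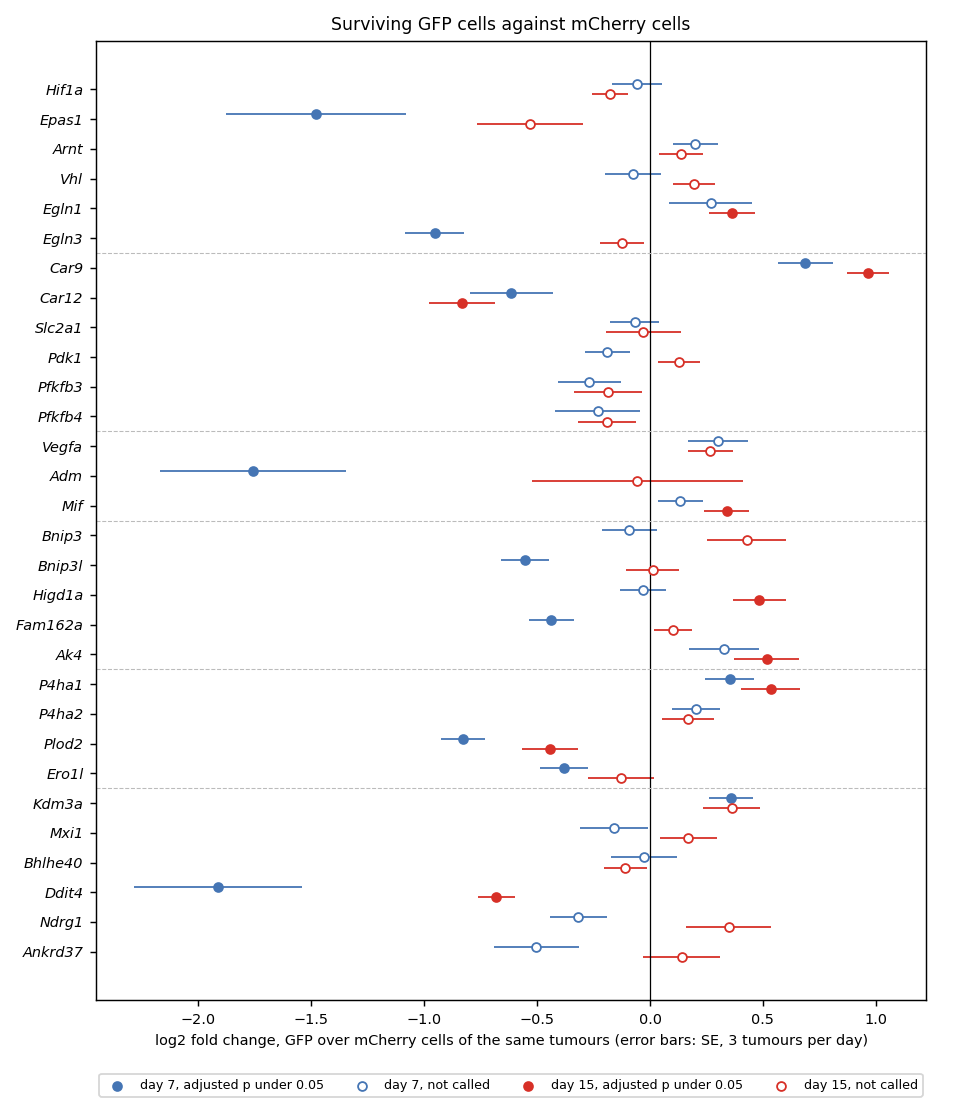
Log2 fold change of GFP over mCherry cells of the same tumours for the 30 tested members (rows, grouped by role with dashed lines), with the SE as bars, on day 7 (blue) and day 15 (red). Filled points passed an adjusted p of 0.05. Car9 lies farthest to the right on both days, Ddit4 farthest to the left on day 7 and Car12 on day 15.

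None of the HIF factors was called higher on either day. Hif1a, the broadly expressed α subunit, had 164, 159 and 179 CPM in GFP libraries of day 7, against 158, 196 and 176 CPM in mCherry libraries, and the groups overlapped (log2 fold change −0.06, SE 0.11, adjusted p = 0.758). In the day 15 tumours it had 222, 228 and 214 CPM in GFP libraries, against 270.2, 256 and 226 CPM in mCherry libraries. All 3 tumours of day 15 had less Hif1a in GFP cells, but the groups overlapped and the difference did not pass (log2 fold change −0.18, SE 0.08, adjusted p = 0.152).

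Epas1, the α subunit HIF-2α known for its high level in endothelium, was scarce throughout. On day 7 it had 1.75, 2.09 and 0.982 CPM in GFP libraries, against 2.21, 5.77 and 5.89 CPM in mCherry libraries. The groups did not overlap, though the difference ran unevenly over tumours 2, 3 and 4, at log2 −0.33, −1.43 and −2.48, and Epas1 fell (log2 fold change −1.48, SE 0.40, adjusted p = 0.0288). The call was lost without tumour 3 (adjusted p = 0.117) and without tumour 4 (0.0721). On day 15 its 4.47, 11.7 and 5.64 CPM in GFP libraries overlapped the 11.2, 11.5 and 7.27 CPM in mCherry libraries and the difference did not pass (log2 fold change −0.53, SE 0.23, adjusted p = 0.143).

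The oxygen sensors were called on different days and in opposite directions. Egln3, itself a HIF target, had 145, 119 and 115 CPM in GFP libraries of day 7, against 222, 273 and 247 CPM in mCherry libraries. Every GFP library lay far below every mCherry library, a level 1.94 times lower in GFP cells (log2 fold change −0.95, SE 0.13, adjusted p = 0.000990), and the call held under all 8 alternatives tried. By day 15 it had 323, 398 and 273 CPM in GFP libraries, against 371, 363 and 337 CPM in mCherry libraries, with wide overlap (log2 fold change −0.12, SE 0.10, adjusted p = 0.416).

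Egln1, the main oxygen sensor of most cells, rose on day 15, with 106, 96.3 and 84.5 CPM in GFP libraries, against 70.8, 73.0 and 78.4 CPM in mCherry libraries. The groups did not overlap (log2 fold change 0.36, SE 0.10, adjusted p = 0.0304), but the call was lost without tumour 1 (adjusted p = 0.0715) and without tumour 2 (0.0592). On day 7 it had 31.4, 32.2 and 21.2 CPM in GFP libraries, against 23.3, 20.7 and 26.4 CPM in mCherry libraries. Tumour 4 went against the other 2 and the difference did not pass (log2 fold change 0.27, SE 0.18, adjusted p = 0.350). Arnt, the shared β subunit, and Vhl were called on neither day, with log2 fold changes of 0.20 and −0.07 on day 7 and of 0.14 and 0.19 on day 15.

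A contrast on both days lay within 1 enzyme family, though its day 7 side rests on a narrow call of Car12. Car9 and Car12 encode carbonic anhydrases of the cell surface that help to control pH outside the cell, and both are known HIF targets. Car9 rose and Car12 fell in GFP cells on both days.

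Car9 had 153, 112 and 84.7 CPM in GFP libraries of day 7, against 77.7, 77.3 and 60.3 CPM in mCherry libraries. On day 15 it had 147, 152 and 149.8 CPM in GFP libraries, against 69.0, 73.4 and 88.6 CPM in mCherry libraries. No GFP library overlapped an mCherry library of its day, and the day 15 GFP libraries lay close together. The level in GFP cells was 1.61 times that of mCherry cells on day 7 (log2 fold change 0.69, SE 0.12, adjusted p = 0.00428) and 1.95 times on day 15 (log2 fold change 0.96, SE 0.09, adjusted p = 0.000142). Both calls held under all 8 alternatives tried on each day.

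Car12 had 8.32, 6.64 and 7.66 CPM in GFP libraries of day 7, against 13.8, 9.01 and 12.6 CPM in mCherry libraries. On day 15 the values were 6.93, 7.00 and 8.08 CPM in GFP libraries, against 11.3, 12.3 and 15.8 CPM in mCherry libraries. GFP lay below mCherry in all 6 tumours, with no overlap on either day. The day 7 difference passed narrowly (log2 fold change −0.61, SE 0.18, adjusted p = 0.0437) and was lost in DESeq2 (adjusted p = 0.0920), with tumours not blocked (0.0708), without tumour 2 (0.221), without tumour 3 (0.125) and without tumour 4 (0.0559). That of day 15 was firmer (log2 fold change −0.83, SE 0.15, adjusted p = 0.00354) and held under all 8 alternatives.

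The RefSeq start of Car9 is on chromosome 4, where the gene spans 43506966 to 43513729 in GENCODE M21 (GRCm38, plus strand), and that of Car12 on chromosome 9 (66713686 to 66766845, plus strand). The sequences before both starts are shown because these close relatives moved in opposite directions, and those of P4ha1 (chromosome 10, 59323296 to 59373304, plus strand) and Ddit4 (chromosome 10, 59949669 to 59951834, minus strand) as another member that rose and another that fell on both days. Each is 250 bases up to the RefSeq start in GRCm38.p6, written 5′ to 3′ on the gene's strand. GENCODE places the starts of Car9 and Ddit4 farther upstream, inside these windows. Capitals mark the cores ACGTG and GCGTG read on either strand, so that CACGT and CACGC are cores of the other strand.
Car9 (chr4:43506776-43507025, plus strand): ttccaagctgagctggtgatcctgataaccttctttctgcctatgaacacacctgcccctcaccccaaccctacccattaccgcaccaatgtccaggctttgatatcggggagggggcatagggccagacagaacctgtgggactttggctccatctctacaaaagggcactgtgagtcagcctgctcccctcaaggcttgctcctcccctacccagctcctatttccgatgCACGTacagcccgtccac
Car12 (chr9:66713436-66713685, plus strand): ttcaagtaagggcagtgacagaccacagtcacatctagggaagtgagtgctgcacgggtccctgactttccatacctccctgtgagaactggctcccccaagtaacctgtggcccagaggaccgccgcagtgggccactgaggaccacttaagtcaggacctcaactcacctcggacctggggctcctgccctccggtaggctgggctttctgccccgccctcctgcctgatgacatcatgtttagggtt
P4ha1 (chr10:59323046-59323295, plus strand): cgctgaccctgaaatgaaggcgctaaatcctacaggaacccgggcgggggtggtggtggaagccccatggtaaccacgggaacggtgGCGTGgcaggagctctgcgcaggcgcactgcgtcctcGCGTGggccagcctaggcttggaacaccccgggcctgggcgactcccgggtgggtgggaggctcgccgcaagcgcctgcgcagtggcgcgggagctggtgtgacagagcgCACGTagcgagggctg
Ddit4 (chr10:59951771-59952020, minus strand): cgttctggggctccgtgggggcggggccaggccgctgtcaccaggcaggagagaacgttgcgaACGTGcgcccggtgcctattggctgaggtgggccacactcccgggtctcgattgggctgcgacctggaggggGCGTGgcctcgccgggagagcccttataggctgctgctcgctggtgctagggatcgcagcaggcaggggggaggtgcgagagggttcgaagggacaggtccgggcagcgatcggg

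The Car9 window held 1 core, which ends 13 bases before the start, and the Car12 window held neither core. P4ha1, which rose, held 3 cores, and Ddit4, which fell, held 2. RefSeq's table had promoters for 26 of the 31 members, all but Epas1, Bnip3l, Plod2, Bhlhe40 and Ndrg1. Of these 26, 24 (92.3%) had either core in at least 1 window from 250 bases before to 50 after a start, against 46.7% of the 27025 genes in the table. By single core the shares were 69.2% of members and 21.8% of all genes for ACGTG, and 73.1% and 35.2% for GCGTG, counting both strands. Some genes have several starts. By window, 80.6% of the 36 member windows and 43.8% of all 32851 windows held either core. Most members were listed as known HIF targets and the others as parts of the HIF system, so that the share describes the list. These letters in a window are a match and no evidence of binding. Members that rose, fell and did not pass all included windows with a core. Of the members matched, only Car12 and Vhl had none in any window.

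Slc2a1, Pdk1, Pfkfb3 and Pfkfb4, members that act on glucose, were called on neither day. Slc2a1, the glucose transporter GLUT1, had 538, 408 and 313 CPM in GFP libraries of day 15, against 353, 488 and 423 CPM in mCherry libraries. It was highest of all in the GFP cells of tumour 1 and lowest in those of tumour 3, so that the fold change came out near 0 (log2 fold change −0.03, SE 0.17, adjusted p = 0.917). Pdk1 holds pyruvate back from oxidation in the mitochondria, and Pfkfb3 and Pfkfb4 set the level of an activator of glycolysis. Their log2 fold changes were −0.19, −0.27 and −0.23 on day 7. On day 15 these were 0.13, −0.19 and −0.19.

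Among the secreted signals, Vegfa, the principal growth factor of blood vessels, was not called on either day. It had 119, 129 and 73.0 CPM in GFP libraries of day 7, against 80.0, 99.9 and 78.4 CPM in mCherry libraries (log2 fold change 0.30, SE 0.13, adjusted p = 0.153). Its day 15 values were 313, 336 and 231 CPM in GFP libraries, against 220.4, 281 and 226 CPM in mCherry libraries (log2 fold change 0.27, SE 0.10, adjusted p = 0.0869). GFP was above mCherry in 5 of the 6 tumours, but the groups overlapped on both days.

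Adm, the vessel-acting peptide adrenomedullin, was barely expressed, at 5 to 19 counts per GFP library and 33 to 54 per mCherry library on day 7. In CPM these were 0.514, 0.448 and 1.24 in GFP libraries, against 2.66, 2.22 and 2.56 in mCherry libraries. The groups did not overlap and Adm fell (log2 fold change −1.76, SE 0.41, adjusted p = 0.0162), a call that was lost without tumour 3 (adjusted p = 0.0946). On day 15 it had 13 counts or fewer in every GFP and mCherry library and the colours were alike in range (log2 fold change −0.06, SE 0.47, adjusted p = 0.947).

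Mif, a cytokine that also counts among HIF targets, rose on day 15, with 339.9, 286 and 288 CPM in GFP libraries, against 223, 256 and 242 CPM in mCherry libraries (log2 fold change 0.34, SE 0.10, adjusted p = 0.0372). The groups did not overlap, but the call was lost without tumour 1 (adjusted p = 0.0791) and without tumour 3 (0.0866). On day 7 it had 857, 863 and 656 CPM in GFP libraries, against 799, 828 and 574 CPM in mCherry libraries (log2 fold change 0.13, SE 0.10, adjusted p = 0.384). Mif has processed copies nearly identical to it elsewhere in the mouse genome, so that its counts are uncertain. Stc2 reached 0 to 7 counts per library on day 7 and 0 to 12 in the mixed tumours of day 15, too few for a test within tumours.

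The mitochondrial members called on day 7 were others than those called on day 15, and none of the 5 passed edgeR's direct test of a difference between the days with the filter on low counts. On day 7, Bnip3l and Fam162a fell in GFP cells and none of the 5 rose. On day 15, Higd1a and Ak4 rose and none fell.

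Bnip3l, a receptor for mitophagy, had 158, 153 and 145 CPM in GFP libraries of day 7, against 239, 252 and 189.8 CPM in mCherry libraries. All GFP libraries lay below all mCherry libraries (log2 fold change −0.55, SE 0.11, adjusted p = 0.00603), with the call lost without tumour 3 (adjusted p = 0.102). On day 15 the colours overlapped, at 197, 151 and 141 CPM in GFP libraries, against 149.6, 159.7 and 171 CPM in mCherry libraries (log2 fold change 0.01, SE 0.12, adjusted p = 0.953).

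Fam162a, a mitochondrial protein induced by HIF-1, had 337, 336 and 237 CPM in GFP libraries of day 7, against 429, 493 and 326 CPM in mCherry libraries. GFP was lower in each tumour although the groups overlapped, because tumour 4 was low in both colours (log2 fold change −0.44, SE 0.10, adjusted p = 0.0151). This call was lost with tumours not blocked (adjusted p = 0.124), without tumour 2 (0.0532) and without tumour 3 (0.206). Day 15 libraries held 194, 175 and 175 CPM in GFP libraries, against 161, 172 and 173 CPM in mCherry libraries. There the GFP libraries lay just above, and the difference did not pass (log2 fold change 0.10, SE 0.08, adjusted p = 0.431).

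Higd1a, a mitochondrial inner membrane protein tied to respiratory complexes, rose on day 15, with 76.4, 58.0 and 46.5 CPM in GFP libraries, against 42.6, 45.8 and 38.7 CPM in mCherry libraries (log2 fold change 0.48, SE 0.12, adjusted p = 0.0172). Tumour 1 stood highest and the groups did not overlap, and the call was lost with tumours not blocked (adjusted p = 0.0722). On day 7 it had 186, 186 and 133 CPM in GFP libraries, against 181, 212 and 133 CPM in mCherry libraries, in no shared order (log2 fold change −0.03, SE 0.10, adjusted p = 0.861).

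Ak4, an adenylate kinase of the mitochondrial matrix, had 68.5, 55.2 and 49.1 CPM in GFP libraries of day 15, against 33.7, 42.9 and 43.6 CPM in mCherry libraries. GFP and mCherry libraries did not overlap (log2 fold change 0.52, SE 0.14, adjusted p = 0.0307), and the call was lost without tumour 1 (adjusted p = 0.0722). On day 7 GFP was higher in all 3 tumours, at 32.7, 26.0 and 23.6 CPM, against 20.9, 23.7 and 21.3 CPM in mCherry libraries, without passing (log2 fold change 0.33, SE 0.15, adjusted p = 0.173). Bnip3, the relative of Bnip3l in mitophagy, had 300.4, 226 and 182 CPM in GFP libraries of day 15, against 143, 180.3 and 197 CPM in mCherry libraries. Only tumours 1 and 2 were higher in GFP cells, the groups overlapped and the difference did not pass (log2 fold change 0.43, SE 0.17, adjusted p = 0.116).

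Enzymes of collagen also split. P4ha1, the α subunit of the hydroxylase that acts on collagen prolines, rose on both days, while Plod2, which hydroxylates collagen lysines, fell on both.

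P4ha1 had 351, 322 and 258 CPM in GFP libraries of day 7, against 257, 237 and 237 CPM in mCherry libraries. Day 15 tumours gave 664, 571 and 498 CPM in GFP libraries, against 335, 434 and 425 CPM in mCherry libraries. GFP was above mCherry in all 6 tumours with no overlap on either day. The day 15 rise (log2 fold change 0.53, SE 0.13, adjusted p = 0.0182) held under all 8 alternatives, and that of day 7 (log2 fold change 0.35, SE 0.11, adjusted p = 0.0487) was lost with a minimum count of 50 (adjusted p = 0.0554), with tumours not blocked (0.0845), without tumour 2 (0.337) and without tumour 3 (0.326).

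Plod2, on chromosome 9 (92542223 to 92608428, plus strand), had 136, 117 and 135 CPM in GFP libraries of day 7, against 245, 199 and 254 CPM in mCherry libraries. The later tumours gave 407, 344 and 259 CPM in GFP libraries, against 429, 469 and 453 CPM in mCherry libraries. All GFP libraries lay below all mCherry libraries of their day. The day 7 fall was even over the tumours, at log2 −0.85, −0.77 and −0.91 (log2 fold change −0.83, SE 0.10, adjusted p = 0.000395), and held under all 8 alternatives. On day 15 it ran from near 0 in tumour 1 to larger in tumours 2 and 3, at log2 −0.08, −0.45 and −0.80 (log2 fold change −0.44, SE 0.12, adjusted p = 0.0308), and was lost with tumours not blocked (adjusted p = 0.0894) and without tumour 3 (0.239).

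Ero1l, an oxidase that helps form disulfide bonds in the endoplasmic reticulum, had 169, 148 and 129 CPM in GFP libraries of day 7, against 222, 219 and 151 CPM in mCherry libraries. GFP was lower in each tumour, while the groups overlapped (log2 fold change −0.38, SE 0.11, adjusted p = 0.0325), and the call was lost with tumours not blocked (adjusted p = 0.133), without tumour 2 (0.143) and without tumour 3 (0.340). On day 15 its 395, 303 and 229.9 CPM in GFP libraries spanned the 310.3, 335 and 347 CPM of mCherry libraries (log2 fold change −0.13, SE 0.15, adjusted p = 0.574). P4ha2, the other α subunit of the prolyl hydroxylase, was called on neither day, with log2 fold changes of 0.20 on day 7 and 0.17 on day 15.

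Of the nuclear and stress genes, Ddit4 fell most. Ddit4, or REDD1, restrains mTORC1 under low oxygen and other stresses and also answers to glucocorticoids. It had 2.16, 1.49 and 1.38 CPM in GFP libraries of day 7, against 4.92, 4.06 and 11.4 CPM in mCherry libraries. In run 2, on day 15, it had 84.8, 90.8 and 69.3 CPM in GFP libraries, against 131, 160.4 and 105 CPM in mCherry libraries. GFP lay below mCherry in all 6 tumours without overlap on either day. The level in GFP cells was 3.77 times lower on day 7 (log2 fold change −1.91, SE 0.37, adjusted p = 0.00670) and 1.60 times lower on day 15 (log2 fold change −0.68, SE 0.08, adjusted p = 0.000532). Both calls held under all 8 alternatives, but the day 7 values rest on 20 or 21 counts per GFP library.

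Kdm3a, a histone H3K9 demethylase induced by HIF-1, rose on day 7, with 95.1, 104 and 99.7 CPM in GFP libraries, against 82.5, 80.0 and 73.9 CPM in mCherry libraries. No GFP library overlapped an mCherry one (log2 fold change 0.36, SE 0.10, adjusted p = 0.0294), and the call was lost in DESeq2 (adjusted p = 0.0526), without tumour 2 (0.0755) and without tumour 3 (0.227). Its day 15 levels were 246, 163 and 166 CPM in GFP libraries, against 141, 147 and 152 CPM in mCherry libraries. GFP was again above in all 3 tumours without overlap, and the difference did not pass (log2 fold change 0.36, SE 0.13, adjusted p = 0.0711). Ndrg1, Ankrd37, Bhlhe40 and Mxi1 were not called on either day. Ndrg1, a stress-responsive gene often used as a hypoxia marker, had 715, 456 and 287 CPM in GFP libraries of day 15, against 335, 432 and 312 CPM in mCherry libraries, where the single GFP library of tumour 1 stood high (log2 fold change 0.35, SE 0.19, adjusted p = 0.226).

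**Figure D2:**
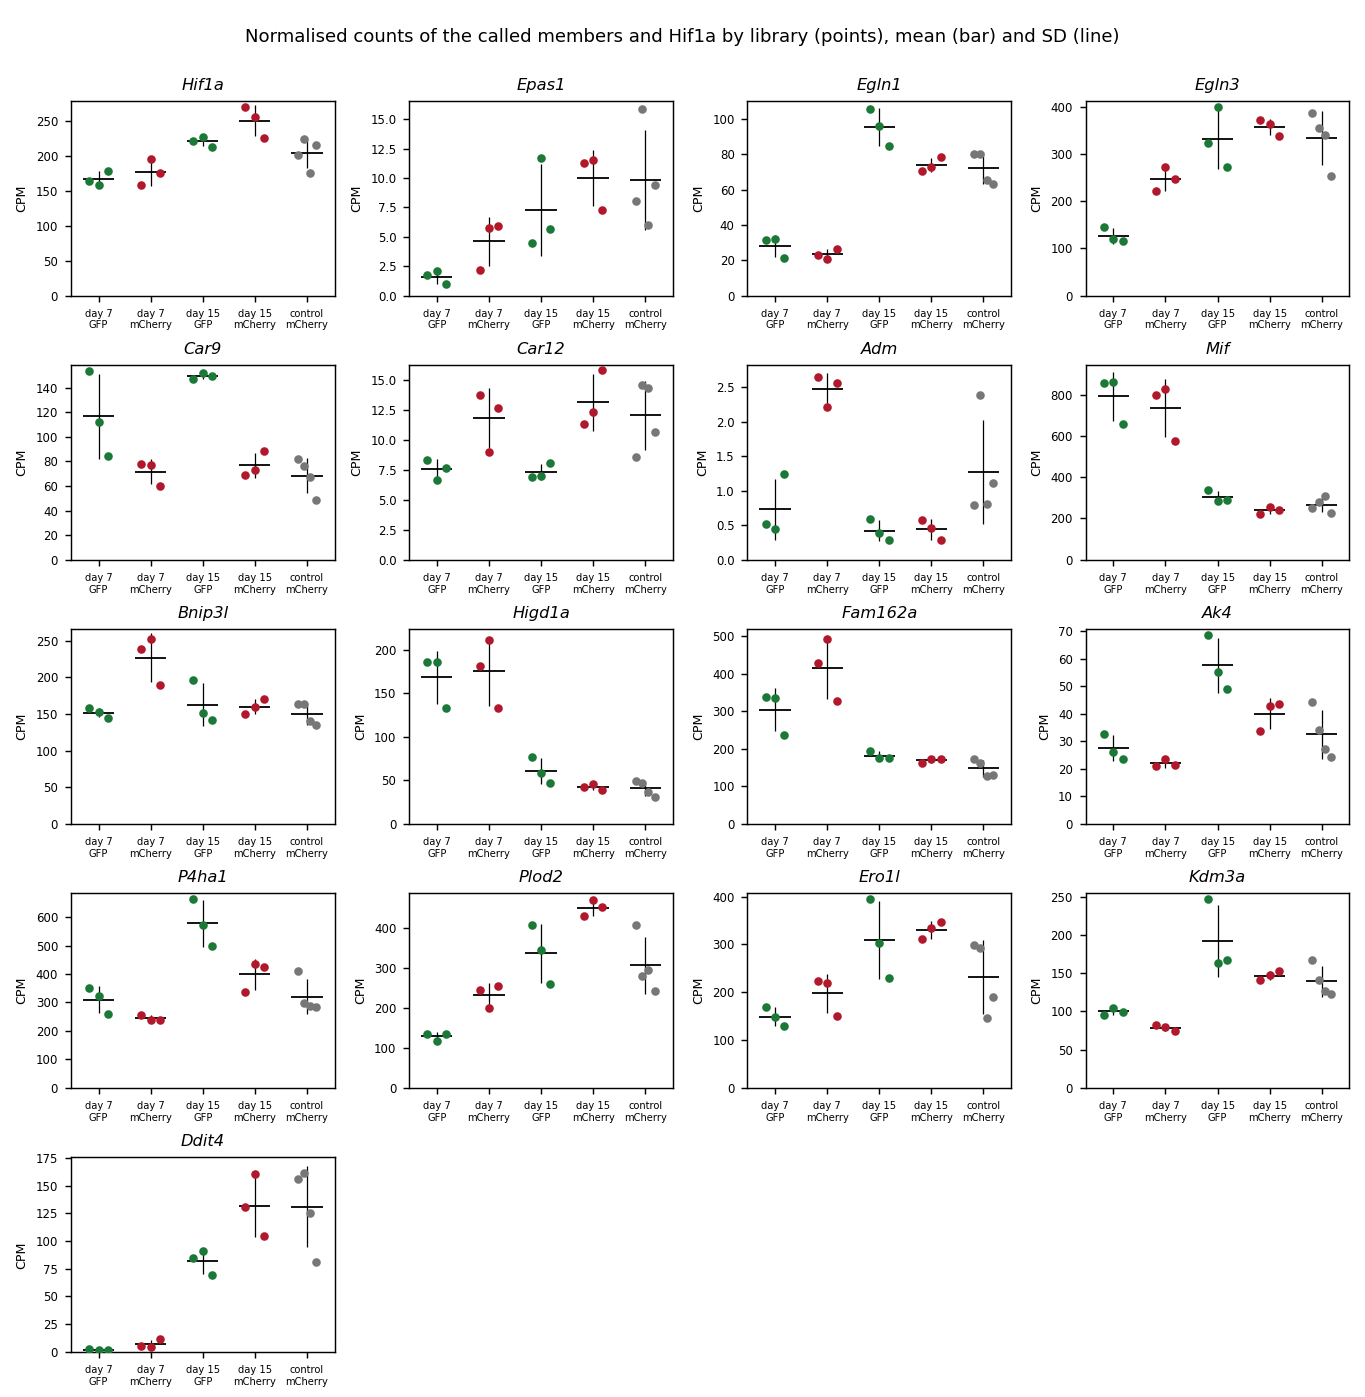
CPM (vertical axes, each from 0) of Hif1a and the 16 members called on at least 1 day, for each library (points), with the mean (bar) and SD (line) of GFP (green), mCherry (red) and control (grey) groups. Car9 and Car12 separate the colours in opposite directions on both days, and Ddit4 is near 0 in all day 7 libraries.

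On day 15 most members had their largest signed difference in 1 tumour, and only some of the rises depended on it. Differences are ranked with their sign, so that for a member that fell, such as Plod2, the largest is the weakest fall. Tumour 1 of day 15 gave the largest difference of GFP over mCherry cells in 23 of 30 members and tumour 3 the smallest in 21, where tumour 1 was largest for 37.3% of all genes and tumour 3 smallest for 31.7%. The median difference of the members was log2 0.41 in tumour 1, 0.08 in tumour 2 and −0.08 in tumour 3, while all genes had medians of 0.01, −0.00 and −0.00. Without tumour 1, 3 members were higher, Car9, P4ha1 and Higd1a, and 5 lower. The rises of Egln1, Mif and Ak4 lost their calls there. Bnip3 and Ndrg1, named here for their spread after their values were seen, had differences of log2 1.08, 0.32 and −0.11 and of log2 1.09, 0.08 and −0.12 in tumours 1, 2 and 3. Car9, Car12 and Ddit4 varied much less between tumours, with Car9 at log2 1.09, 1.05 and 0.76. On day 7, tumour 2 had the largest difference in 14 of 30 members and tumour 4 the smallest in 15, where tumour 2 was largest for 27.6% of all genes and tumour 4 smallest for 36.6%. The medians of the members were −0.12, −0.20 and −0.21 in tumours 2, 3 and 4, while single members such as Ddit4, at log2 −1.15, −1.39 and −2.97, differed widely.

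**Figure D3:**
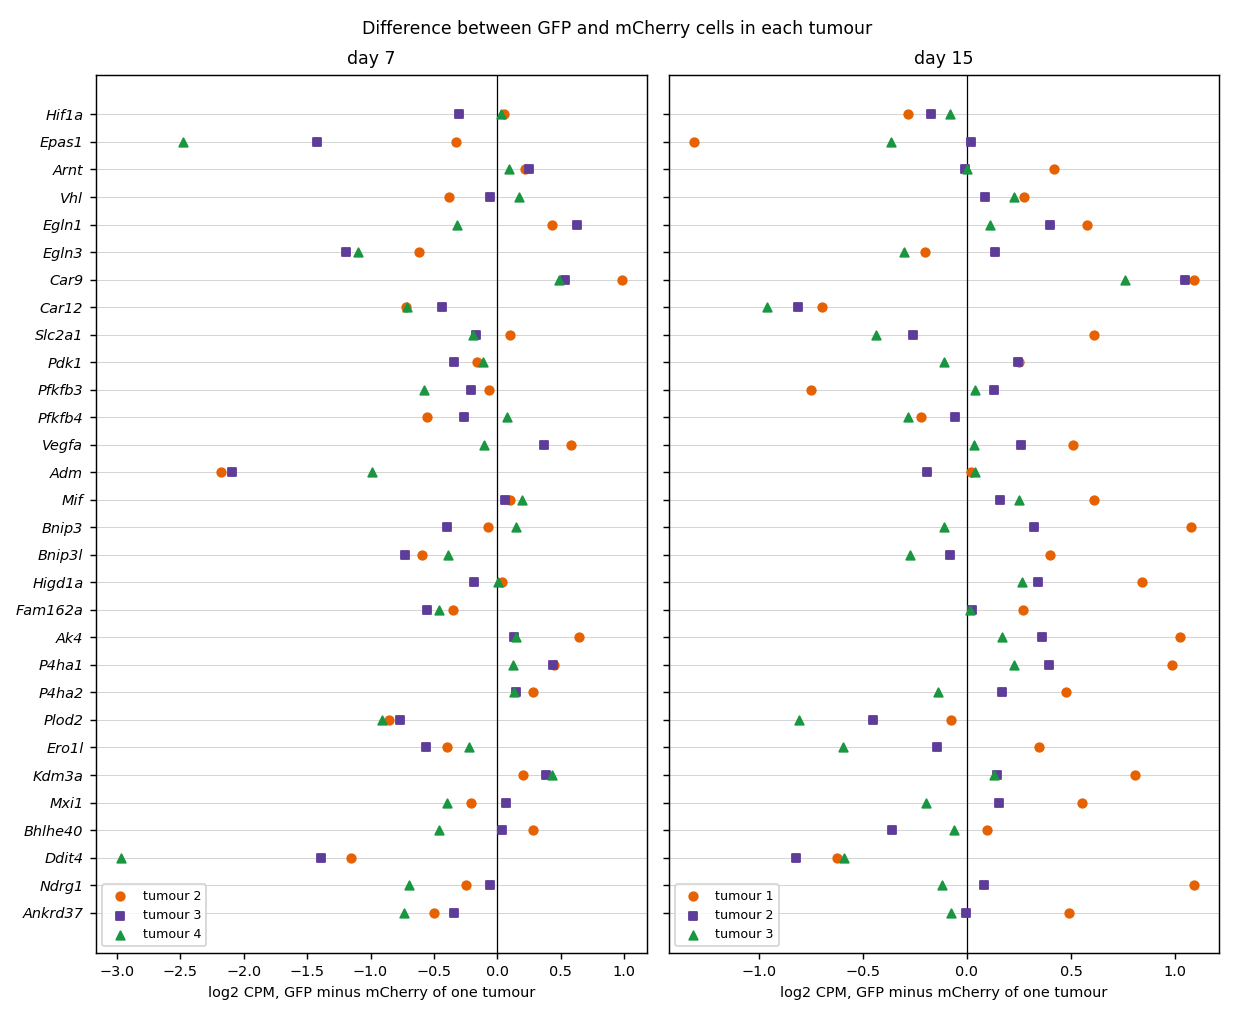
Difference between GFP and mCherry cells of the same tumour in log2 CPM (horizontal axis) for the 30 tested members (rows), by tumour, on day 7 (left panel) and day 15 (right panel). On day 15 the orange points of tumour 1 lie farthest right for 23 of 30 members.

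Setting the day 15 tumours beside controls asks whether cells of either colour differed from cells of unattacked tumours. None of the members passed in mCherry cells of day 15 against controls, in edgeR, where 0% of 14800 genes were called. At an unadjusted p under 0.05 there were 4 members and 2104 genes, and DESeq2 called 1 member, Plod2, and 262 genes. Plod2 had 429, 469 and 453 CPM in day 15 mCherry libraries, all above the 407, 279, 295 and 243 CPM of controls (log2 fold change 0.55, SE 0.15, adjusted p = 0.254). Hif1a was likewise above all controls (log2 fold change 0.29, SE 0.10, adjusted p = 0.284), Ero1l too (log2 fold change 0.51, SE 0.23, adjusted p = 0.357), and Vhl and Adm below all (log2 fold change −0.18, SE 0.07, adjusted p = 0.333 and log2 fold change −1.53, SE 0.50, adjusted p = 0.273). Of the 30 members tested, these 5 had groups that did not overlap, where 8.49% of all genes did so upward and 6.01% downward. The share of members was thus near that of all genes.

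GFP cells of day 15 had more Car9, P4ha1, Bnip3 and Ak4 and less Car12 than controls. These 5 calls are 16.1% of the 31 members tested here, 12.9% higher and 3.23% lower. Of all 14801 genes 13.1% were called, 6.09% higher and 6.97% lower. Only the share with both directions together was thus near that of all genes. Groups did not overlap for 9 members. Arnt, Egln1, Car9, Bnip3, Fam162a, Ak4 and P4ha1 lay wholly higher, and Car12 and Adm wholly lower. Of all genes 14.6% lay wholly higher and 15.2% wholly lower. Again only the share with both directions together was near that of all genes. These GFP libraries are the same as in the comparison with mCherry cells, so that the results are not independent.

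Car9 had 147, 152 and 149.8 CPM in GFP libraries, against 82.0, 76.2, 67.7 and 48.5 CPM in controls (log2 fold change 1.12, SE 0.15, adjusted p = 0.00944). Every GFP library lay above every control, and the call held under all 12 alternatives tried. P4ha1 had 664, 571 and 498 CPM in GFP libraries, against 411, 297, 287 and 285 CPM in controls (log2 fold change 0.85, SE 0.15, adjusted p = 0.0151), and the call was lost only without GFP library 1 (adjusted p = 0.0616). Control 1 stood apart from the other 3 here.

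Bnip3 had 300.4, 226 and 182 CPM in GFP libraries, against 165, 147, 101 and 100.4 CPM in controls (log2 fold change 0.88, SE 0.22, adjusted p = 0.0335). No overlap was seen, nor any for Ak4, at 68.5, 55.2 and 49.1 CPM in GFP libraries, against 44.4, 34.3, 27.3 and 24.4 CPM in controls (log2 fold change 0.82, SE 0.20, adjusted p = 0.0329). Bnip3 lost its call without GFP library 1 (adjusted p = 0.120), without GFP library 2 (0.0821), without control 3 (0.0805) and without control 4 (0.0505), and Ak4 without GFP library 1 (adjusted p = 0.120), without GFP library 2 (0.0819), without GFP library 3 (0.0532), without control 2 (0.0596) and without control 3 (0.0809).

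Car12 had 6.93, 7.00 and 8.08 CPM in GFP libraries, against 8.57, 14.6, 14.3 and 10.7 CPM in controls (log2 fold change −0.71, SE 0.20, adjusted p = 0.0458). All GFP libraries were below all controls, and the call was lost without GFP library 1 (adjusted p = 0.138), without GFP library 2 (0.128), without GFP library 3 (0.0814), without control 2 (0.0978) and without control 3 (0.103). Plod2, which fell against mCherry cells, overlapped the controls (log2 fold change 0.14, SE 0.19, adjusted p = 0.665). Ddit4 did as well, because control 4 at 81.4 CPM lay among the GFP libraries (log2 fold change −0.68, SE 0.22, adjusted p = 0.0682).

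The difference between days, of GFP against mCherry cells on day 15 minus that on day 7, was tested directly, and none of the 30 members passed in edgeR. Of 16626 genes, 0.211% passed. At an unadjusted p under 0.05 there were 10 members and 1703 genes, and DESeq2 called 2 members, Egln3 and Fam162a, and 153 genes. Without a filter on low counts edgeR called 6 members, Egln3, Bnip3, Bnip3l, Fam162a, Ddit4 and Ndrg1, and 354 genes. The difference was positive for 24 members, with a median of 0.26, against a median of −0.01 for all genes. The share of all genes with a positive difference was not counted. Egln3 came closest to passing (log2 fold change 0.83, SE 0.18, adjusted p = 0.0960), and Ddit4 (log2 fold change 1.31, SE 0.33, adjusted p = 0.152), Fam162a (log2 fold change 0.54, SE 0.13, adjusted p = 0.152) and Adm (log2 fold change 1.72, SE 0.64, adjusted p = 0.371) had large differences that did not pass. Whether a member differed between the days thus depended on the filter and the tool, and a call on 1 day alone does not show it.

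Levels between the days differed far more for some members than the colours did. Ddit4 was 1.38 to 2.16 CPM in GFP libraries and 4.06 to 11.4 CPM in mCherry libraries of day 7. It was 69.3 to 90.8 CPM in GFP libraries and 105 to 160.4 CPM in mCherry libraries of day 15, and 81.4 to 161 CPM in controls. Mif ran the other way, at 656 to 863 CPM and 574 to 828 CPM in GFP and mCherry libraries of day 7, and 286 to 339.9 CPM and 223 to 256 CPM in those of day 15. Higd1a and Fam162a were also higher in every day 7 library than in every library of run 2. The shift had the same direction in both colours, and day and sequencing run cannot be told apart here. Per kilobase of exon, Mif was the most abundant member in all 5 groups and Fam162a the next, with group means of 322 to 1063 and 174 to 489 CPM per kb, and Stc2 was last in all 5.

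Other genes of the pathway were also called in both directions. Beside the counts that follow, 18.2% of all genes were called on day 7 and 19.5% on day 15. Of 13 other regulators of HIF, 12 were tested on each day. On day 7, 1 was higher and 2 lower, and on day 15, 2 were higher and 2 lower. Eloc, a subunit of the Vhl ubiquitin ligase, fell on day 7 with 123, 124 and 127 CPM in GFP libraries, against 193, 194 and 157 CPM in mCherry libraries (log2 fold change −0.51, SE 0.11, adjusted p = 0.00891). The colours did not overlap, and the call was lost without tumour 2 (adjusted p = 0.0569) and without tumour 3 (0.121). Of 32 other HIF targets, 4 of 25 tested were higher and 4 lower on day 7, and 7 of 26 were higher and 4 lower on day 15. The medians of the 2 lists lay between −0.00 and 0.14 on both days.

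Gbe1, the branching enzyme of glycogen, rose on both days, with 86.0, 68.4 and 41.3 CPM in GFP libraries, against 41.0, 51.0 and 27.2 CPM in mCherry libraries on day 7 (log2 fold change 0.72, SE 0.14, adjusted p = 0.00699). On day 15 it had 41.6, 51.1 and 39.6 CPM in GFP libraries, against 25.6, 33.7 and 35.8 CPM in mCherry libraries (log2 fold change 0.48, SE 0.12, adjusted p = 0.0179). GFP was higher in each of the 6 tumours, and both calls were lost with tumours not blocked (adjusted p = 0.101 and 0.0552). Stc1, the relative of Stc2, fell on both days. It had 11.6, 11.7 and 5.11 CPM in GFP libraries, against 74.8, 38.6 and 55.8 CPM in mCherry libraries on day 7 (log2 fold change −2.57, SE 0.26, adjusted p = 0.000171), and 3.24, 14.5 and 4.56 CPM in GFP libraries, against 54.1, 37.0 and 36.1 CPM in mCherry libraries on day 15 (log2 fold change −2.67, SE 0.38, adjusted p = 0.00114).

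Nos2, the inducible nitric oxide synthase, rose on day 7 (log2 fold change 0.64, SE 0.12, adjusted p = 0.00533), a call lost with tumours not blocked (adjusted p = 0.199), and Insig2, which holds back sterol synthesis, on day 15 (log2 fold change 0.58, SE 0.11, adjusted p = 0.00446). Hmox1, heme oxygenase, rose on day 7 (log2 fold change 2.12, SE 0.14, adjusted p = 1.47e-05) and day 15 (log2 fold change 2.01, SE 0.21, adjusted p = 0.000211). The collagen and elastin crosslinkers Lox (log2 fold change −1.61, SE 0.23, adjusted p = 0.00142) on day 7, and Lox (log2 fold change −1.74, SE 0.19, adjusted p = 0.000275) and Loxl2 (log2 fold change −2.05, SE 0.43, adjusted p = 0.00914) on day 15, fell, Loxl2 from a level under 3 CPM in every library of these tumours. The call of Loxl2 was lost without tumour 3 (adjusted p = 0.0669).

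Markers of other cell types moved with the colour. The sum of 11 macrophage markers was 104 to 170.3 CPM in GFP libraries and 619 to 850 CPM in mCherry libraries on day 7, and all 11 fell. On day 15 it was 54.1 to 72.5 CPM in GFP libraries and 86.7 to 109 CPM in mCherry libraries, and 5 of 9 tested fell. The sum of 10 endothelial markers was 18.1 to 18.7 CPM in GFP libraries and 48.5 to 83.3 CPM in mCherry libraries on day 7, where all 8 tested fell, and 23.6 to 32.5 CPM in GFP libraries and 38.2 to 67.7 CPM in mCherry libraries on day 15, where 4 of 10 fell. No macrophage or endothelial marker was at 0 throughout a group. Fewer cells of a type and less RNA per cell cannot be told apart in such libraries.

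Epas1 and Adm, which endothelium expresses, were lower in GFP cells of day 7 beside these markers. Among controls both were highest in control 2, which also had the highest endothelial sum, 135 CPM against 34.6 CPM in the lowest. Control 2 had the highest macrophage, neutrophil, epithelial and fibroblast sums of the controls as well, but not the highest proliferation sum. On day 15 the endothelial sums of the colours did not overlap, while Adm was alike in range. The part of the endothelial and macrophage markers in the results on Epas1 and Adm was not tested. The 7 epithelial and mammary carcinoma markers moved with the colour too. They summed to 450.1 to 656 CPM in GFP libraries and 989 to 1387 CPM in mCherry libraries on day 7, and to 458 to 546 CPM in GFP libraries and 626 to 930.1 CPM in mCherry libraries on day 15, without overlap. Krt8 and Krt18 fell and Cdh1, which joins epithelial cells, rose on both days. The part of these markers in the results on the members was not tested. The sum of 4 proliferation markers was 268 to 700.4 CPM in GFP libraries and 675 to 898 CPM in mCherry libraries on day 7, and 354 to 540.5 CPM in GFP libraries and 741 to 1329 CPM in mCherry libraries on day 15. All 4 fell on both days. The 6 fibroblast and pericyte markers summed to 748 to 817 CPM in GFP libraries and 649.8 to 807 CPM in mCherry libraries on day 7, with 1 of 5 lower. On day 15 they summed to 1366 to 1559 CPM in GFP libraries and 951 to 1203 CPM in mCherry libraries, with 1 of 6 higher and 2 lower. T and NK cell markers summed to at most 5.24 CPM in every library. Cd4 was at 0 in every day 7 GFP library, and Cd4 and Gzmb in every day 15 mCherry library.

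**Figure D4:**
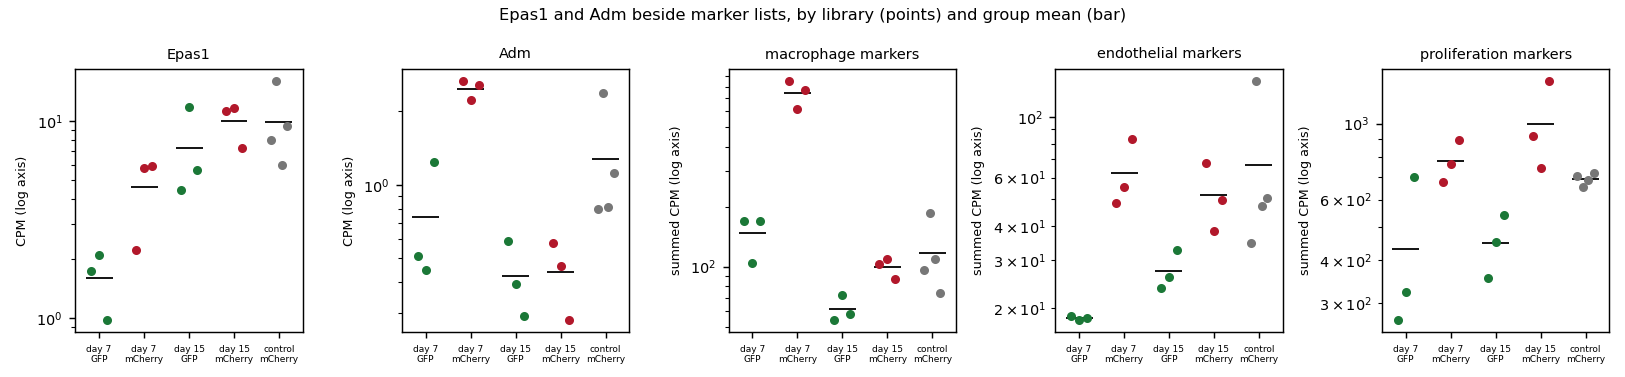
Epas1, Adm and the summed macrophage, endothelial and proliferation markers by library (points) and group mean (bar), in CPM on log axes, for GFP (green), mCherry (red) and control (grey) libraries. On day 7 the GFP libraries lie below the mCherry libraries in all panels except proliferation, where 1 GFP library reaches 700.4 CPM. Control 2 is the highest control for Epas1, Adm and the macrophage and endothelial sums.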

How the data were processed

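RNA of 16 libraries of sorted cells was measured. The authors deposited raw counts per gene, which a sequencing company had made, per the labels' protocols. The build was mm10, as the submitters' processing notes say. The sources used here name no aligner, counter, annotation or strand setting. RNA was extracted with a kit or by the company, and which libraries had which is not stated. The authors' DESeq2 tables were not used.

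Genes passing filterByExpr (minimum count 10, minimum total 15) were scaled with TMM and tested by quasi-likelihood F-tests in edgeR 4.0.16 (R 4.3.3). P-values were adjusted by Benjamini-Hochberg over all genes tested, with a threshold of 0.05. Within a day, GFP and mCherry cells were compared with tumour as a block, since the series' design calls the mCherry cells paired controls. Comparisons of day 15 cells with controls had no block. The difference between days was a contrast over the 12 mixed tumour libraries, again with tumours blocked. Comparisons share libraries of day 15 and of the controls. The SE was taken from the log2 fold change and the F statistic. Differences within single tumours used log2 CPM and a prior count of 2. CPM used TMM factors over all 16 libraries. The models were also run on simulated counts without differences between tumours. Changes were planted there only in genes above a count floor, and were larger than that of any member called. These runs therefore do not show how small changes or scarce genes fare.

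Of the 49315 genes, 176 lacked a symbol; their counts made up at most 0.0110% of any library and stayed in the library sizes. Greater depth lowers the counting error, but replicates spread beyond it, with a chi-square over degrees of freedom of at least 5.34 within groups. Errors thus rest on the spread between libraries of different tumours, which the labels list as separate. Each tumour gave 1 library per colour, so that tumour, sorting and library preparation cannot be told apart in this spread. With tumours blocked, the error is the spread of the difference between colours. On day 7 tumour 4 stood apart in both colours. Its GFP library gave 26.8 and 26.1 with tumours 2 and 3, against 5.34 between those. Its mCherry library gave 92.1 and 88.1, against 10.5. Day 15 pairs share a tumour in the labels. The count columns of day 7 carry the numbers 2 to 4, where the labels have 1 to 3. They were matched to groups and paired by column number. Tumours and controls go by their column numbers here. Residuals of day 7 libraries of 1 number correlated at 0.110 to 0.158, and others at −0.126 to 0.00670. On day 15 these were 0.0901 to 0.232 and −0.183 to 0.0186.

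The members and gene lists were chosen with earlier results of these data known. Members called within tumours, and Hif1a, are given by library. Of the other HIF genes, the 3 of smallest p in each direction and day are named. As alternatives, DESeq2 1.42.0 was run, its size factors were used in edgeR, the filter was dropped or raised to a minimum count of 50, tumours were not blocked, each tumour or library was left out, and all 10 libraries of run 2 were fitted together. Reporter transcripts were not analysed here.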

Additional observations from a re-analysis of the deposited data

Results flagged for a closer look

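P4ha1 stood out in control 1, at 411 CPM, against 285 to 297 CPM in the other 3 controls, a gap that takes up most of the range of the group. The controls were the only groups of 4 examined for a library apart, with 31 members, and chance gives such a gap about 1 time in 20. Without control 1 the call of P4ha1 in day 15 GFP cells against controls held.

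Fam162a had differences of opposite sign on the 2 days, of which that of day 7 alone was called. On day 7 GFP cells lay below mCherry cells in 3 of 3 tumours, and on day 15 above in 3 of 3, though by as little as log2 0.01 in tumour 3. The difference between the days was 0.54 (SE 0.13, adjusted p = 0.152 in edgeR), which did not pass. It passed in DESeq2 and, without a filter, in edgeR.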

How the results depend on the processing

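Among 40 gene results (log2 fold changes of single genes) and 337 values under alternatives, 285 kept their direction and side of the threshold, 51 lost a call and 1 reversed, which was Hif1a on day 7 without tumour 3, at log2 0.069 and uncalled either way. Of the 40, 17 kept both under every alternative tried. Counts that moved by over 1.5 times were these. Without a filter, 10 members were higher on day 15, 3 were lower in GFP cells against controls, and 6 differed between days (354 genes). DESeq2 called 1 member higher and 262 genes in mCherry cells against controls, 7 higher, 3 lower and 2953 genes in GFP cells against controls, and 2 members and 153 genes between days. In the joint fit of 10 libraries, 2 members were lower against controls. Between days, 14 genes passed at a minimum count of 50. The causes were not tested.

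Leaving out 1 tumour gave 1 to 5 members higher, 3 to 7 lower and 1156 to 4558 genes called on day 7, and 3 to 8 higher, 2 to 5 lower and 1736 to 2546 genes on day 15. It gave 0 members and 3 to 126 genes between days. Leaving out 1 library gave 0 members and 0 to 7 genes in mCherry cells against controls, and 1 to 4 higher, 0 to 2 lower and 287 to 2093 genes in GFP cells against controls. Hif1a on day 7 ranged from log2 −0.12 to 0.069.

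Without the tumour block, 2 members were higher and 6 lower among 2159 genes on day 7, 5 were higher and 2 lower among 2059 genes on day 15, and 2 genes and no member passed between days. The members that lost a call there were P4ha1, Ero1l, Car12 and Fam162a on day 7 and Plod2 and Higd1a on day 15. With 2 residual degrees of freedom per day and day 7 GFP libraries of at most 14535791 counts, scarce members such as Adm, Epas1 and Ddit4 rest on few counts.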
